A study of Bos taurus and other sequences with 9 samples.

Results

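The loci of tRNA-Pro, tRNA-Thr and tRNA-Cys are the rows of the small ncRNA table that are typed as tRNA and carry Pro, Thr or Cys in their name. They were 72 of 530 tRNA loci and of 1361 loci of small ncRNA other than miRNA. tRNA-Pro had 21 loci (10 with anticodon AGG, 4 with CGG and 7 with TGG), tRNA-Thr had 22 (10 with AGT, 6 with CGT and 6 with TGT), and tRNA-Cys had 29, all with anticodon GCA.

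RNA in the extracellular vesicle (EV) fraction of 9 cell culture media was sequenced to see how much small ncRNA each medium carried. The serum media, in the same basal medium with antibiotics, held untreated fetal bovine serum (FBS), commercial exosome-depleted serum of System Biosciences (SBI-dFBS), serum depleted of EVs by ultracentrifugation (UC-dFBS), or serum depleted by centrifugal ultrafiltration (UF-dFBS), with 2 samples each. Replicate 1 of FBS, UC-dFBS and UF-dFBS came from a Sigma serum and replicate 2 from a Gibco serum, whereas SBI-dFBS was represented by separate commercial lots. StemPRO, a defined medium free of serum for mesenchymal stem cells, had 1 sample, so that it has no replicate check.

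A transfer RNA (tRNA) reads codons through its anticodon and brings the matching amino acid, here proline, threonine or cysteine, to the ribosome. An isotype is the set of tRNAs for 1 amino acid, and tRNAs of 1 isotype with different anticodons are called isoacceptors. Each is encoded by many gene copies of nearly or wholly the same sequence, and tRNAs and their fragments are known as abundant RNAs of serum, inside and outside vesicles.

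The reads of the bovine serum were counted at loci of the human genome (GRCh37), so that a locus stands for the sequence it shares with the bovine tRNA and not for a bovine gene. How reads that match several copies were placed is not given in the sources used here, so that values of single loci are uncertain where copies resemble each other. Names are not unique either, and 4 tRNA-Pro and 10 tRNA-Cys loci share their name with another, so that chromosomes are given below. The loci were 72 to 74 nt long, with the exception of tRNA4-ProAGG at chr16:3210386-3210480, which spans 95 nt, so that counts of loci can be compared almost as per length. No sequences are shown, since no sequence of these loci was in the sources used here.

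The samples differed in depth from 6679 counts in StemPRO and 82513 in UF-dFBS-2 to 6867736 in UF-dFBS-1, miRNA included. A spike-in normalized count is a count divided by a factor of the sample that the authors obtained from added spike-in RNAs, and these factors ran from 3.78 to 108. A floor of 3 counts corresponded to between 0.0278 (StemPRO) and 0.794 (SBI-dFBS-2) spike-in normalized counts. Counting error alone is covered by the intervals and floors given here. The summed level of 4 miRNAs of red blood cells (hsa-miR-451a, hsa-miR-486-5p, hsa-miR-144-3p and hsa-miR-144-5p), read as a sign of haemolysis, reached 245 and 286 spike-in normalized counts with untreated serum. It ran from 131 to 176 for SBI-dFBS and from 15.5 to 19.3 for UC-dFBS, and was at most 0.916 for UF-dFBS and StemPRO. The sum moved with the medium. The authors report lower total miRNA in each depleted serum, so that haemolysis and removal of miRNA cannot be told apart there. Between FBS-1 and FBS-2 the markers of the sum went both ways. hsa-miR-486-5p was at 126 and 237 in FBS-1 and FBS-2, so lower in FBS-1. Higher in FBS-1 were hsa-miR-451a (71.8 and 32.6), hsa-miR-144-5p (34.5 and 12.9) and hsa-miR-144-3p (12.8 and 3.76). The part of these miRNAs in the tRNA results was not tested.

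The 3 isotypes together were a small part of the tRNA. Their counts were 4420 and 2097 (FBS-1 and FBS-2), 5527 and 7405 (SBI-dFBS), 3825 and 1998 (UC-dFBS), 4820 and 244 (UF-dFBS), and 435 (StemPRO). As a share of tRNA counts this was 0.0705% in UF-dFBS-1, 0.110% to 0.128% in the other samples of Sigma serum and in SBI-dFBS, and 0.227% to 0.444% in the samples of Gibco serum. In StemPRO it was 9.48% of only 4590 tRNA counts (95% Wilson interval 8.66% to 10.4%).

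tRNA-Cys was the lowest of the 3 isotypes in each of the 9 samples. For tRNA-Pro the sums of spike-in normalized counts were 425 and 221 (FBS-1 and FBS-2), 303 and 856 (SBI-dFBS), 308 and 211 (UC-dFBS), 53.3 and 6.50 (UF-dFBS), and 2.88 (StemPRO). For tRNA-Thr they were 476 and 57.1 (FBS), 299 and 1084 (SBI-dFBS), 272 and 78.9 (UC-dFBS), 31.4 and 2.58 (UF-dFBS), and 0.602 (StemPRO). For tRNA-Cys they were 11.6 and 2.68 (FBS), 8.51 and 20.4 (SBI-dFBS), 5.20 and 3.23 (UC-dFBS), 2.61 and 1.08 (UF-dFBS), and 0.546 (StemPRO). The order tRNA-Pro over tRNA-Thr held in UF-dFBS, in StemPRO and in each sample of Gibco serum, while in FBS-1 and SBI-dFBS-2 tRNA-Thr was the higher. Among 24 tRNA name classes, tRNA-Pro ranked 5 to 12 by level over the 9 samples, tRNA-Thr 10 to 15 and tRNA-Cys 15 to 19, counted from the highest.

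**Figure D1:**
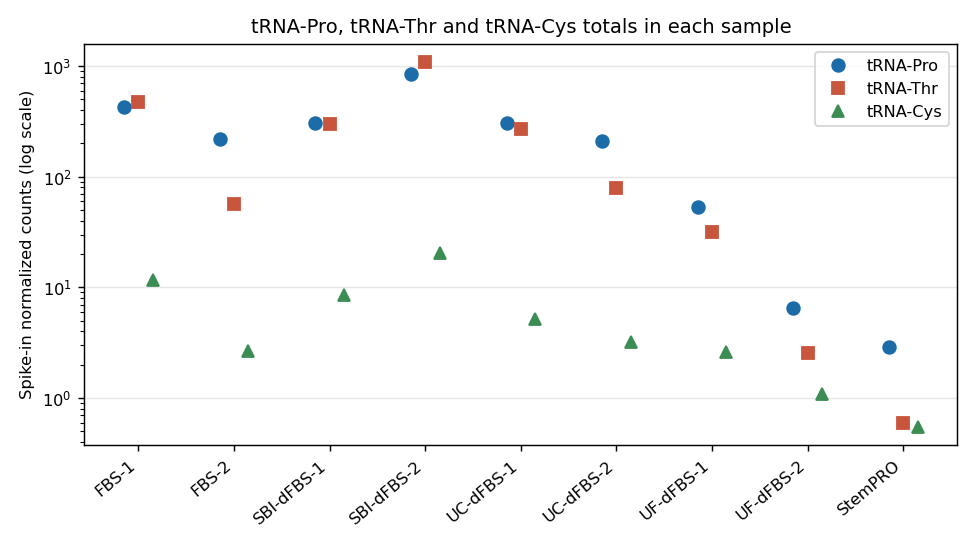
Summed spike-in normalized counts (log scale) of tRNA-Pro, tRNA-Thr and tRNA-Cys in each of the 9 samples, 1 point per isotype and sample. Both UF-dFBS samples and StemPRO lie below the other samples for each isotype, though UF-dFBS-1 and FBS-2 are nearly level for tRNA-Cys. tRNA-Pro and tRNA-Thr part in the Gibco samples FBS-2 and UC-dFBS-2.

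The isotypes also differed in how their counts spread over loci. All 21 tRNA-Pro loci were above 0 in each of the 9 samples, against 10 of 22 tRNA-Thr and 2 of 29 tRNA-Cys loci. Over all samples a tRNA-Pro locus held 530 to 1179 counts, a tRNA-Thr locus 3 to 3729, and a tRNA-Cys locus 1 to 101.

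tRNA-Pro counts were spread almost evenly over loci on 8 chromosomes. In FBS-1 the loci held 62 to 127 counts with a median of 101, and in FBS-2 they held 52 to 100 with a median of 78. The variance of counts over loci divided by their mean, which is 1 for pure counting error, was 3.39 and 2.01 for tRNA-Pro (FBS-1 and FBS-2), against 277 and 54.4 for tRNA-Thr. With tRNA3-ProTGG of chromosome 14 left out, the 20 other tRNA-Pro loci gave 0.943 in UF-dFBS-2 and 1.46 to 4.71 in the other samples. Medians per locus differed little between the tRNA-Pro anticodons, at 102.5 (AGG), 96 (CGG) and 101 (TGG) counts in FBS-1. Since the placement of reads among similar copies is not known, this evenness describes the deposited counts and not the output of each locus.

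tRNA3-ProTGG at chr14:21101165-21101236 (plus strand) stood apart from the other tRNA-Pro loci in 3 samples. Its counts were 70 and 52 (FBS), 154 and 170 (SBI-dFBS), 83 and 42 (UC-dFBS), 406 and 62 (UF-dFBS), and 140 (StemPRO). The highest of the other tRNA-Pro loci had 199 counts (UF-dFBS-1), 10 (UF-dFBS-2) and 19 (StemPRO), so that tRNA3-ProTGG led all of them there, whereas in FBS and UC-dFBS it lay below their median. Of all tRNA-Pro counts it took 2.92% to 5.62% with untreated, commercial or ultracentrifuged serum. The share was 13.8% for UF-dFBS-1 (95% Wilson interval 12.6% to 15.1%), 39.7% for UF-dFBS-2 (32.4% to 47.6%) and 45.0% for StemPRO (39.6% to 50.6%). Of the 72 loci it alone exceeded 1 spike-in normalized count in StemPRO (1.30), and likewise in UF-dFBS-2 (2.58). The other locus of the name tRNA3-ProTGG, at chr16:3208923-3208994, had 114 and 4 counts in UF-dFBS and 9 in StemPRO.

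**Figure D2:**
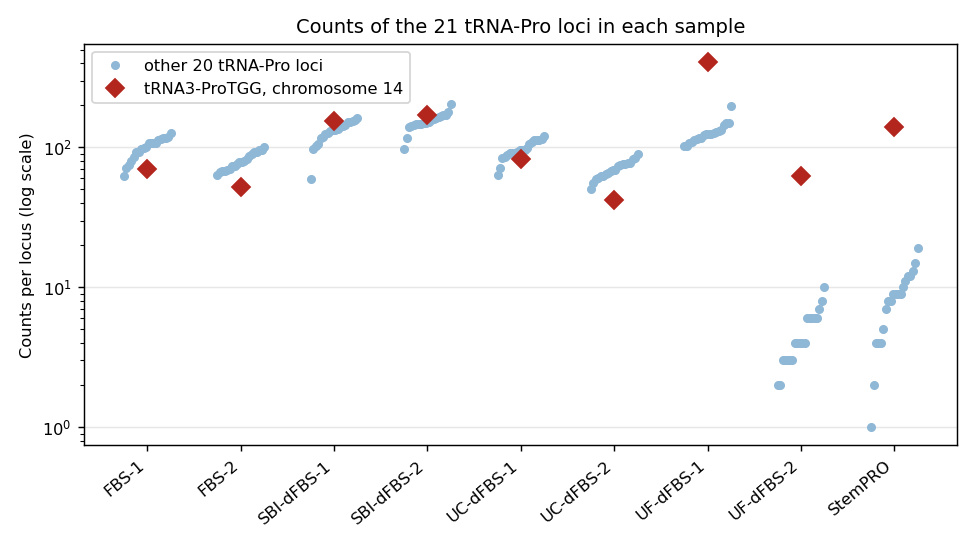
Counts (log scale) of the 21 tRNA-Pro loci in each sample, with the loci sorted by count within a sample. The red diamond, tRNA3-ProTGG of chromosome 14, lies among the other loci or just below them in the first 6 samples, and above all of them in UF-dFBS-1 (406), UF-dFBS-2 (62) and StemPRO (140).

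A few loci carried most tRNA-Thr counts of the serum media. tRNA15-ThrCGT (chr16:14379750-14379821) held 3729 counts over the 9 samples, tRNA56-ThrTGT (chr1:222638347-222638419) held 2988 and tRNA14-ThrCGT (chr17:29877093-29877164) held 1795. These 3 loci made up 62.1% of tRNA-Thr counts pooled over the 9 samples, and from 22.1% (FBS-2) to 79.9% (UF-dFBS-1) within a sample. The 6 highest made up 82.3% to 96.0% within the serum samples and 38.5% in StemPRO. In FBS-2 the highest were tRNA13-ThrTGT (chr5:180618687-180618758, named after its values were seen) with 100 counts, tRNA20-ThrTGT with 94 and tRNA21-ThrTGT with 90. The 10 tRNA-Thr loci on chromosome 6 held 587 counts, or 4.28%. In StemPRO the leading locus was another, since tRNA14-ThrCGT had 15 of the 65 tRNA-Thr counts, tRNA54-ThrCGT of chromosome 6 (named after its values were seen) had 14, and tRNA15-ThrCGT had 0.

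Within anticodon TGT, the leading locus of tRNA-Thr differed by supplier. The counts of tRNA56-ThrTGT were 484 and 27 (FBS-1 and FBS-2), 433 and 952 (SBI-dFBS), 359 and 27 (UC-dFBS), 689 and 11 (UF-dFBS), and 6 (StemPRO). tRNA20-ThrTGT (chr14:21099319-21099391), with the same anticodon, had 330 and 94 (FBS), 177 and 447 (SBI-dFBS), 172 and 80 (UC-dFBS), 107 and 12 (UF-dFBS), and 2 (StemPRO). tRNA56-ThrTGT was thus the higher of the pair in each Sigma sample and the lower in each Gibco sample, where the 11 and 12 counts of UF-dFBS-2 do not differ beyond counting error. tRNA21-ThrTGT (chr14:21081949-21082021), of the same anticodon, had 351 and 90 counts in FBS. For CGT the leading locus did not change with the supplier in FBS. tRNA15-ThrCGT had 491 and 38 counts there, above the 219 and 29 of tRNA14-ThrCGT. The leading AGT loci, tRNA36-ThrAGT, tRNA40-ThrAGT and tRNA8-ThrAGT of chromosome 17, had 13 to 17 counts each in FBS-1 and 1 to 5 in FBS-2.

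tRNA-Cys was close to the limit of detection at most loci. The 17 loci on chromosome 7, between positions 149007281 and 149404831, held 144 of 515 tRNA-Cys counts, and 7 of them had at most 3 counts over all samples. tRNA7-CysGCA (chr3:131947944-131948015) led with 13 and 3 counts (FBS), 12 and 22 (SBI-dFBS), 10 and 2 (UC-dFBS), 26 and 0 (UF-dFBS), and 13 (StemPRO). The next by level were tRNA15-CysGCA (chr17:37023898-37023969), with 74 counts over the 9 samples, and tRNA16-CysGCA (chr7:149388272-149388343), with 48. tRNA5-CysGCA (chr7:149007281-149007352) had another pattern, with 0 to 2 counts in the other serum media, 12 and 9 in the UF-dFBS samples, and 16 in StemPRO, where it was the highest tRNA-Cys locus. At 0 counts a level of up to the floor of the sample is allowed, which was 0.619 spike-in normalized counts in FBS-1, against 0.217 measured for tRNA5-CysGCA in UF-dFBS-1, so that a rise of the locus in UF-dFBS was not detectable at this depth.

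The first question of the design is how far each depletion lowered these tRNAs below untreated FBS. On the spike-in scale, UF-dFBS had the lowest levels of each isotype among the serum media, which did not hold for tRNA-Cys on raw counts. tRNA-Cys was less reduced than tRNA-Pro and tRNA-Thr. Untreated FBS had a mean tRNA-Pro level of 323 ± 144 (SD, n = 2) and UF-dFBS one of 29.9 ± 33.1, a ratio of 0.0925. For tRNA-Thr it was 266 ± 296 in FBS and 17.0 ± 20.4 in UF-dFBS, a ratio of 0.0637. For tRNA-Cys it was 7.12 ± 6.28 and 1.84 ± 1.08, a ratio of 0.259, which on raw counts without the spike-in factor became 2.24 and as a share of all small ncRNA counts, miRNA included, became 7.13. The groups did not overlap for any isotype. For tRNA-Cys they nearly met, at 2.61 in UF-dFBS-1 and 2.68 in FBS-2, the latter from 20 counts, which is within counting error. An exact two-sided permutation test of log2 totals gave p = 0.333 for each isotype, the smallest that 2 against 2 samples allow (adjusted over 39 such tests, 0.684). These p-values measure the spread between sera or lots, since nothing in the labels tells of repeated preparations of the same serum. Whether fewer vesicles, less RNA per vesicle or less RNA outside vesicles made up a lower level cannot be told apart.

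Against the 6 other FBS-based samples, UF-dFBS had ratios of 0.0771 for tRNA-Pro, 0.0449 for tRNA-Thr and 0.215 for tRNA-Cys. As a share of all small ncRNA counts, miRNA included, the ratio was 1.06 for tRNA-Pro and 9.06 for tRNA-Cys. As a share of tRNA counts it was 0.957 for tRNA-Pro, 0.777 for tRNA-Thr and 8.42 for tRNA-Cys, each with overlap of the groups. The 8.42 rested on UF-dFBS-2, where the tRNA-Cys share was 0.0323% from 26 counts. In UF-dFBS-1 the share was 0.00211%, within the range of the 6 others (exact permutation p = 0.214). With each replicate left out in turn, the tRNA-Cys ratio ran from 1.03 to 15.8. The direction of tRNA-Cys thus depended on the scaling and that of tRNA-Pro on the denominator. On the spike-in scale both UF-dFBS samples lay below all 6 others for each isotype. For tRNA-Cys the gap was narrow, from 2.61 in UF-dFBS-1 to 2.68 in FBS-2. Exact two-sided permutation tests of these totals gave p = 0.0714, the smallest that 2 against 6 allow (adjusted p = 0.355).

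Within a sample the ratio of isotypes does not depend on the spike-in factor. The log2 ratio of tRNA-Pro to tRNA-Cys was 3.47 ± 1.25 in UF-dFBS (n = 2) and 5.67 ± 0.50 in the 6 others, a difference of -2.20. The log2 ratio of tRNA-Thr to tRNA-Cys was 2.42 ± 1.65 and 5.16 ± 0.55, a difference of -2.74. Neither pair of groups overlapped (exact permutation p = 0.0714 for each, two-sided and the smallest possible, adjusted p = 0.355). tRNA-Pro against tRNA-Thr differed by 0.54 on the log2 scale, with overlap (exact permutation p = 0.5).

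UF-dFBS can also be set against the untreated serum it was made from. Ultrafiltered Sigma serum held tRNA-Pro at 0.125 times the untreated serum (95% counting interval 0.119 to 0.133), tRNA-Thr at 0.0659 times and tRNA-Cys at 0.226 times (0.165 to 0.313). Ultrafiltered Gibco serum held tRNA-Pro at 0.0293 times (0.0247 to 0.0346), tRNA-Thr at 0.0452 times (0.034 to 0.0591) and tRNA-Cys at 0.404 times (0.217 to 0.762). The total of all tRNA was 0.158 and 0.0528 times the untreated serum in the same pairs, so that tRNA-Cys was reduced less than all tRNA in both sera. tRNA-Thr was reduced more in Sigma serum, while its Gibco interval held the value of all tRNA. Raw counts were 1.43 times the untreated serum for tRNA-Pro in the Sigma pair and 2.57 and 1.30 times for tRNA-Cys in both pairs, so that the direction there rests on the spike-in factors (55.2 for UF-dFBS-1 and 4.84 for FBS-1). Ranked from the least to the most reduced of 21 tRNA classes, tRNA-Cys came 7 in Sigma and 3 in Gibco serum, tRNA-Pro 12 and 18, and tRNA-Thr 16 and 15. Other classes with few counts were at 0.809 and 0.887 (tRNA-Phe), 0.53 and 0.327 (tRNA-Tyr), and 0.146 and 0.705 (tRNA-Asn). A weak reduction was thus not particular to tRNA-Cys. In UF-dFBS-2 tRNA-Cys had 26 counts, of which 9 were of tRNA5-CysGCA. That locus had 1 count in FBS-2 and 16 in StemPRO.

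**Figure D3:**
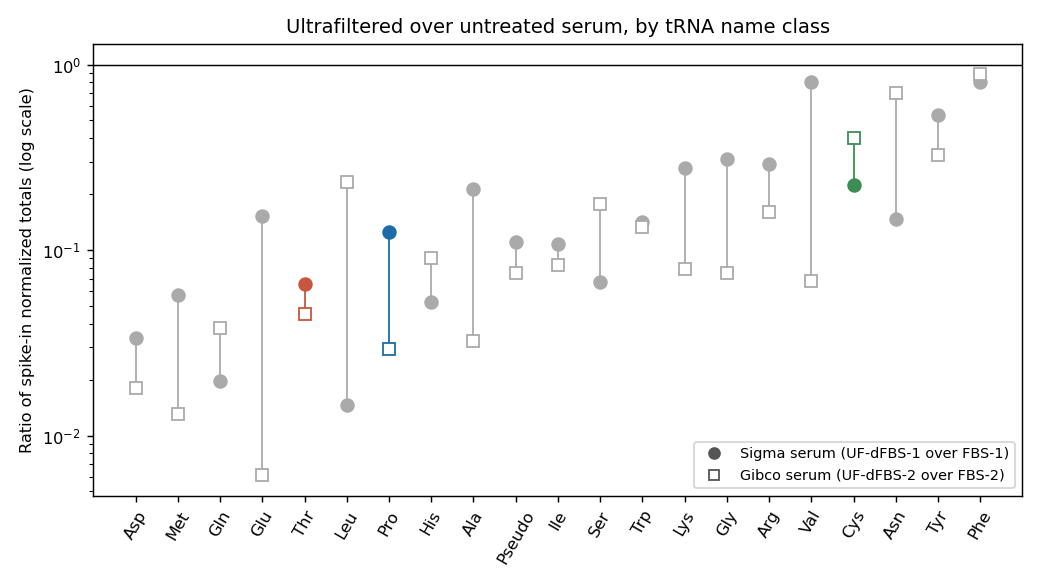
Spike-in normalized total of each tRNA name class in UF-dFBS divided by that in FBS of the same serum (log scale), with Sigma serum as circles and Gibco serum as squares, ordered by the mean of both log ratios. tRNA-Thr (red) lies at 0.0659 and 0.0452, tRNA-Pro (blue) at 0.125 and 0.0293, and tRNA-Cys (green) at 0.226 and 0.404.

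tRNA3-ProTGG of chromosome 14 was less reduced than the other tRNA-Pro loci in both sera. Its ratio of UF-dFBS to FBS was 0.509 (0.394 to 0.665) in Sigma and 0.370 (0.252 to 0.546) in Gibco serum, against 0.112 (0.105 to 0.119) and 0.0182 (0.0147 to 0.0225) for the 20 others together. The intervals of the locus and of the others did not overlap in either serum, which compares these libraries and not repeated preparations. The locus was set against the others after its counts in these samples were seen. The intervals do not allow for this choice, so that they are no test of the difference.

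TGG, the anticodon of this locus, made up 29.4% to 36.1% of tRNA-Pro counts with untreated, commercial or ultracentrifuged serum, 41.2% (UF-dFBS-1) and 62.2% (UF-dFBS-2) after ultrafiltration, and 65.3% in StemPRO (95% Wilson interval 59.8% to 70.3%). AGG made up 44.6% to 49.9% in the same 6 samples, 40.8% and 27.6% in UF-dFBS, and 20.9% in StemPRO (16.8% to 25.8%). TGG was thus 51.7% ± 14.8 in UF-dFBS (n = 2) and 33.2% ± 2.4 in the 6 others, without overlap (exact two-sided permutation p = 0.0714, the smallest possible, adjusted p = 0.355). The difference of 18.5 percentage points was 7.98 without UF-dFBS-2 and 28.9 without UF-dFBS-1. With tRNA3-ProTGG of chromosome 14 left out, an alternative chosen after seeing the data, the TGG difference was 4.11 percentage points (exact permutation p = 0.143) and that of AGG went from -13.3 to -2.99. CGG took 10.3% to 20.7% of tRNA-Pro counts in the 9 samples.

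**Figure D4:**
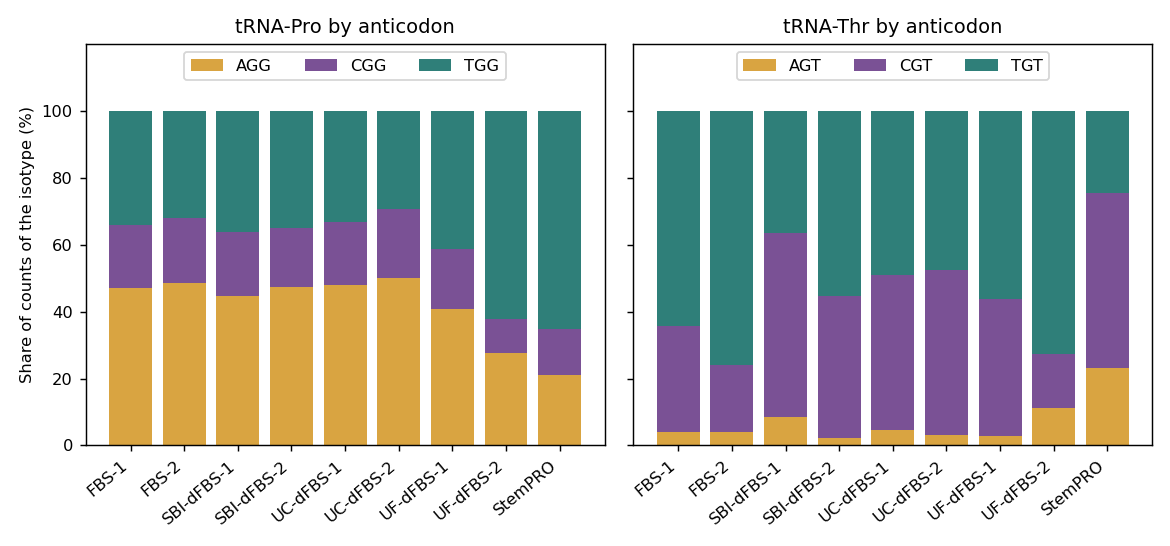
Share of tRNA-Pro counts (left) and of tRNA-Thr counts (right) by anticodon in each sample, as stacked bars that add to 100%. TGG of tRNA-Pro takes 41.2% and 62.2% in UF-dFBS and 65.3% in StemPRO, against at most 36.1% in the others, while the tRNA-Thr anticodons vary among all media.

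The anticodon shares of tRNA-Thr overlapped between UF-dFBS and the 6 others. TGT made up 64.3% and 76.1% of tRNA-Thr counts (FBS), 36.6% and 55.2% (SBI-dFBS), 49.2% and 47.6% (UC-dFBS), 56.3% and 72.6% (UF-dFBS), and 24.6% (StemPRO). CGT ran from 16.1% in UF-dFBS-2 to 54.8% in SBI-dFBS-1. AGT ran from 2.22% in SBI-dFBS-2 to 11.3% in UF-dFBS-2, and was 23.1% of 65 counts in StemPRO (95% Wilson interval 14.5% to 34.6%). At least 1 of the UF-dFBS samples lay within the range of the 6 others for each of these anticodons, with exact permutation p from 0.286 to 0.429.

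In a test of each locus, edgeR's quasi-likelihood test with the spike-in factors as library sizes was fitted on all 363 loci with at least 10 counts in at least 2 of the 8 FBS-based samples. Of the 72 loci 40 entered it, which were 21 of tRNA-Pro, 17 of tRNA-Thr and 2 of tRNA-Cys. The 32 others had too few counts.

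For UF-dFBS against FBS, 0 of these 40 passed an adjusted p of 0.05, as did 0.0% of all loci tested. At an unadjusted p under 0.05 there were 10, all of tRNA-Thr and all lower in UF-dFBS, among 108 of all loci. All 40 had a negative log2 fold change, with a median of -3.70 for tRNA-Pro, -4.44 for tRNA-Thr and -2.01 for the 2 tRNA-Cys loci, beside -3.63 for all loci tested. TMM scaling, which centres the loci, moved the median of all loci to -0.57, and 4 of the 40 then had a positive value. The lowest value was that of tRNA151-ThrCGT (chr6:27271568-27271639) at -6.27 ± 1.72 (SE, adjusted p = 0.0824 in edgeR), with 13 and 14 counts (FBS), 107 and 54 (SBI-dFBS), 22 in each UC-dFBS sample, and 2 and 0 (UF-dFBS). The highest was that of tRNA3-ProTGG of chromosome 14 at -1.11 ± 1.52 (adjusted p = 0.615 in edgeR).

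With the serum as a replicate block the call for UF-dFBS changed. In edgeR on the 6 samples of both sera, 33 of 34 loci were lower in UF-dFBS, among 66.1% of the 322 loci tested. They were 20 of 21 tRNA-Pro loci, 12 of 12 tRNA-Thr loci and tRNA7-CysGCA of chromosome 3. The exception was tRNA3-ProTGG of chromosome 14, at a log2 fold change of -1.19 ± 0.83 (adjusted p = 0.199), beside -3.61 to -4.53 for the 10 AGG loci and -3.79 to -4.30 for the 4 CGG loci. DESeq2 with the spike-in factors and without the block called 18 of the 40 lower (9 tRNA-Pro and 9 tRNA-Thr loci), among 37.2% of all loci.

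UC-dFBS did not lie apart from FBS. tRNA-Pro was 259 ± 68.8 spike-in normalized counts in UC-dFBS (n = 2), or 0.803 times FBS, tRNA-Thr was 175 ± 136, or 0.658 times, and tRNA-Cys was 4.21 ± 1.40, or 0.592 times. The groups overlapped for each isotype (exact permutation p = 0.667, 1 and 1), and without FBS-1 all 3 ratios were above 1. edgeR passed 0 of 40 loci (0.0% of all loci tested), with 0 at an unadjusted p under 0.05 and 0 in DESeq2, and with the serum as block 0 of 34 passed, beside 2.48% of all loci. The median log2 fold change was -0.33 for tRNA-Pro and -0.30 for tRNA-Thr, against -0.87 over all loci tested and 0.14 over all loci under TMM scaling, where 36 of the 40 were positive.

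SBI-dFBS had the highest mean of each isotype on the spike-in scale, which did not hold for shares of tRNA counts, and passed no test either. Its mean was 580 ± 391 spike-in normalized counts for tRNA-Pro (1.79 times FBS), 692 ± 555 for tRNA-Thr (2.60 times) and 14.4 ± 8.39 for tRNA-Cys (2.03 times), each with overlap and an exact permutation p of 0.667. As a share of all small ncRNA counts, miRNA included, tRNA-Pro was at 0.358 times, tRNA-Thr at 1.02 times and tRNA-Cys at 0.645 times FBS. The direction of tRNA-Pro and tRNA-Cys thus depended on the scaling. As a share of tRNA counts, tRNA-Thr was 0.0629% and 0.0694% in SBI-dFBS, against 0.0608% and 0.0902% in FBS. The direction of the tRNA-Thr mean thus depended on the denominator. Without FBS-1 the spike-in ratios were 12.1 for tRNA-Thr and 5.39 for tRNA-Cys, and without SBI-dFBS-2 they were 1.12 and 1.20, with 0.938 for tRNA-Pro. The lots of SBI-dFBS differed, and SBI-dFBS-1 had 0.354 times the tRNA-Pro, 0.276 times the tRNA-Thr and 0.418 times the tRNA-Cys of SBI-dFBS-2. edgeR passed 0 of 40 loci (0.0% of all loci tested), with 0 at an unadjusted p under 0.05 and 0 in DESeq2.

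The second question is how the sera of both suppliers differed. On the spike-in scale all 3 isotypes were higher in Sigma than in Gibco serum within each medium, whereas as shares of tRNA counts they were lower over the media. tRNA-Pro differed least in FBS and UC-dFBS. The ratio of Sigma to Gibco for tRNA-Pro was 1.92 in FBS, 1.46 in UC-dFBS and 8.20 in UF-dFBS. For tRNA-Thr it was 8.33, 3.45 and 12.2, and for tRNA-Cys 4.31, 1.61 (95% counting interval 0.916 to 2.89) and 2.41. The total of all tRNA had ratios of 12.4, 4.12 and 37.0, so that none of the 3 isotypes differed as much between the suppliers as all tRNA did. Among 21 tRNA classes, the FBS ratio of tRNA-Pro was the second lowest, beside a median of 5.66.

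Over the media, the mean ratio was 1.79 for tRNA-Pro (exact two-sided permutation p = 0.5), 5.62 for tRNA-Thr (p = 0.3) and 2.77 for tRNA-Cys (p = 0.3), where 3 against 3 samples cannot go below 0.1. As shares of tRNA counts the direction turned. tRNA-Pro made up 0.0518% ± 0.0077 of tRNA counts in the Sigma samples (SD, n = 3) and 0.236% ± 0.09998 in the Gibco samples. tRNA-Thr made up 0.0457% ± 0.0183 and 0.0762% ± 0.0146, and tRNA-Cys 0.00152% ± 0.000567 and 0.0130% ± 0.0167. None of these shares overlapped between suppliers, each with an exact permutation p of 0.1, the smallest possible (adjusted p = 0.355). For tRNA-Thr the gap was within counting error, at 0.0608% in FBS-1 and 0.0611% in UC-dFBS-2. So it was for tRNA-Cys, at 0.00211% in UF-dFBS-1 and 0.00250% in UC-dFBS-2. Each supplier was represented by a single serum, and its 3 samples are media made from it. The SDs and p-values between suppliers, here and per locus below, thus do not measure the spread between sera of a supplier. The permutation did not match samples by medium. The log2 ratio of tRNA-Pro to tRNA-Thr was 0.26 ± 0.47 in Sigma and 1.57 ± 0.34 in Gibco samples, also without overlap (exact permutation p = 0.1, adjusted p = 0.355).

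Per locus, edgeR with the medium as a term was fitted on 280 loci with at least 10 counts in at least 3 of the 6 samples, of which 31 were of these isotypes. It called 13 of the 31, all higher in Sigma serum, among 62.1% of all loci called higher, whereas under TMM scaling 23 were called and all were lower in Sigma (21.4% of all loci lower). The 13 were 5 of 21 tRNA-Pro loci, 7 of 9 tRNA-Thr loci and the 1 tRNA-Cys locus tested. DESeq2 with the spike-in factors called 27, all higher, among 80.0% of all loci called higher and 80.4% called in either direction.

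The tRNA-Thr loci led this comparison. tRNA56-ThrTGT had a log2 fold change of 4.44 ± 0.97 (SE, adjusted p = 0.000129 in edgeR), tRNA15-ThrCGT had 3.86 ± 1.08 (adjusted p = 0.00236) and tRNA4-ThrAGT (chr19:33667963-33668036) had 3.47 ± 0.97 (adjusted p = 0.00236), and these 3 kept a positive sign under TMM scaling. tRNA15-ThrCGT had 491 and 38 counts in FBS-1 and FBS-2, 534 and 157 in UC-dFBS, and 464 and 4 in UF-dFBS. tRNA151-ThrCGT, with 13 and 14 counts in FBS and 22 in each UC-dFBS sample, was at 0.44 ± 0.76 (adjusted p = 0.625), the lowest of the 31. tRNA7-CysGCA of chromosome 3 was at 3.09 ± 0.96 (adjusted p = 0.00543).

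The tRNA-Pro loci were close to each other, with log2 fold changes from 1.20 to 1.78 and a median of 1.48, against 3.12 for tRNA-Thr and 3.13 for all loci tested. The 5 that passed were tRNA12-ProTGG of chromosome 11, tRNA3-ProTGG of chromosome 16, tRNA6-ProTGG of chromosome 14, tRNA6-ProCGG of chromosome 16 and tRNA65-ProAGG of chromosome 1 (the second and the third chosen after their values were seen), at 1.64 to 1.78 (adjusted p = 0.0335 to 0.0459 in edgeR). The 16 that did not pass were at 1.20 to 1.62, so that the threshold parts loci of nearly the same value. Under TMM scaling all 21 were lower in Sigma serum. tRNA12-ProTGG (chr11:75946869-75946940), the highest of them, had 116 and 87 counts in FBS, 110 and 73 in UC-dFBS, and 199 and 4 in UF-dFBS.

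The number of calls rested on single libraries, for these loci and for all loci tested. Without FBS-1 edgeR called 0 of 28 loci (5.21% of all loci), with 2 at an unadjusted p under 0.05. Without FBS-2 it called 3 of 31 (28.8% of all loci). Without UF-dFBS-1 it called 6 of 28 (56.25% of all loci), and without UF-dFBS-2 9 of 31 (66.8%). Without UC-dFBS-1 it called 17 of 28 (38.9% of all loci), and without UC-dFBS-2 17 of 31 (57.0%).

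**Figure D5:**
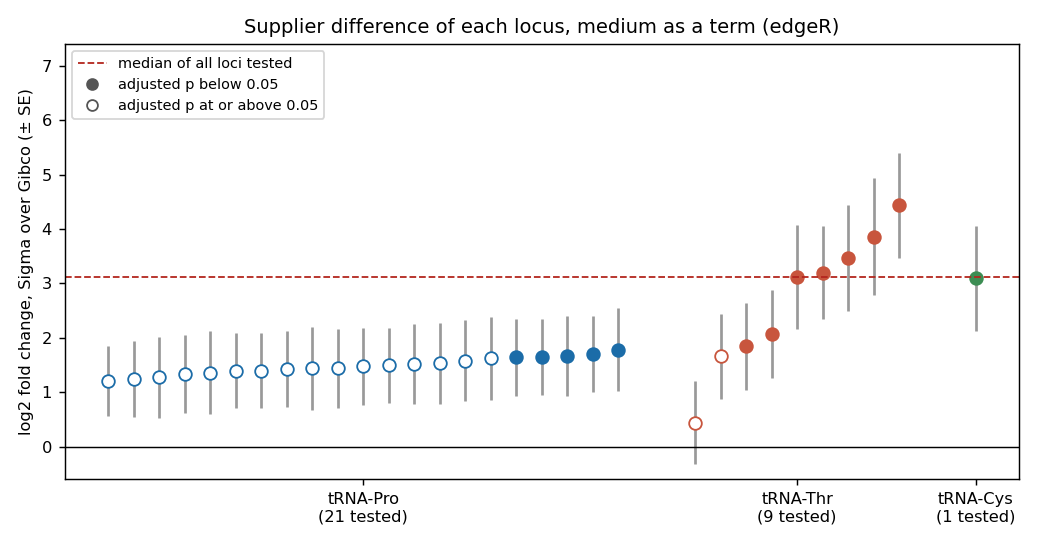
log2 fold change of each tested locus between Sigma and Gibco serum with the medium as a term (edgeR, spike-in scaling, bars are standard errors), sorted within the isotype, with filled points past an adjusted p of 0.05. The tRNA-Pro loci lie between 1.20 and 1.78, below the dashed median of all loci (3.13), and 7 of 9 tRNA-Thr loci and the tRNA-Cys locus are filled.

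StemPRO held all 3 isotypes at trace levels. Relative to FBS-1 and FBS-2, tRNA-Pro was at 0.00677 and 0.0130 times, tRNA-Thr at 0.00126 and 0.0105 times, and tRNA-Cys at 0.0472 (95% counting interval 0.0322 to 0.0693) and 0.204 times (0.121 to 0.357). Relative to UF-dFBS-2, the serum sample nearest to it, they were at 0.443, 0.233 and 0.504 times. By level its highest locus of the 3 isotypes was tRNA3-ProTGG of chromosome 14 with 140 counts, followed by tRNA37-ProCGG of chromosome 17 with 19 and tRNA5-CysGCA of chromosome 7 with 16. tRNA-Cys made up 1.29% of tRNA counts in StemPRO (95% Wilson interval 0.998% to 1.65%) and at most 0.0324% in the serum media.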

How the data were processed

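EV RNA was isolated with a membrane affinity kit and made into libraries with 12 nt unique molecular indices (UMIs). Per the submitters' processing notes, cutadapt 1.11, Bowtie2 2.2.2 and bcl2fastq were used, with GRCh37. The authors collapsed reads by UMI, mapped them to miRBase 20 and then to the human genome with 1 mismatch allowed in the first 32 bases, and deposited the counts per locus. The authors' spike-in normalized table is a signal scaled to added RNAs, and dividing counts by it gave the same factor for each locus of a sample.

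From these, totals, shares, ratios and exact two-sided permutation tests of log2 totals were computed with python 3.11.15, pandas 2.3.3 and scipy 1.17.1. Tests per locus used edgeR 4.0.16 (R 4.3.3; quasi-likelihood, Benjamini-Hochberg adjustment) with library sizes set to the spike-in factors and without TMM, on the 8 FBS-based samples or on the 6 samples of both sera. Raw counts were tested, and steps were tested on simulated data. Ratios of 2 libraries have exact conditional intervals. StemPRO entered no test. Alternatives were DESeq2 1.42.0, TMM, raw or share scaling, no filter, loci with identical counts taken once, other sample sets and each replicate left out.

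Loci named are, per anticodon, the 3 highest by mean level in the FBS-based samples, the 3 highest in StemPRO, and up to 3 per direction with the largest change in each edgeR comparison. Others are the lowest and highest of a list, or are marked. The members and lists were chosen with earlier results of these data known. Loci of tRNA-Pro were also summed without 1 locus, chosen after seeing the data.

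Replicates of FBS, UC-dFBS and UF-dFBS share a serum by their supplier labels. Deviations from the medium means over 363 loci correlated at 0.759 (FBS with UC-dFBS), 0.604 (FBS with UF-dFBS) and 0.574 (UC-dFBS with UF-dFBS), and the serum was used as a replicate block in an alternative fit. SBI-dFBS lots share no serum.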

Additional observations from a re-analysis of the deposited data

Results flagged for a closer look

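In 5 totals the effect of ultracentrifugation pointed one way in the Sigma serum and the other way in the Gibco serum. All tRNA did the same, at 0.680 times FBS in Sigma and 2.04 times in Gibco serum, so that opposite directions were not particular to these totals. With 1 sample per serum and medium, the difference between the sera was not tested. tRNA-Thr in UC-dFBS was 0.571 times FBS in Sigma and 1.38 times in Gibco serum, and tRNA-Cys was 0.450 times and 1.20 times (95% counting interval 0.626 to 2.32). Among anticodons, tRNA-Thr CGT was at 0.828 and 3.41 times, tRNA-Thr AGT at 0.683 and 1.09 times (0.524 to 2.28), and tRNA-Pro CGG at 0.728 and 1.00 times. Of the Gibco values only that of tRNA-Thr CGT (2.66 to 4.40) and of all tRNA-Thr moved away from 1 beyond counting error.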

How the results depend on the processing

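Values on the spike-in scale rest on factors of 1 fit per sample, and UF-dFBS-2 and StemPRO limit all ratios of tRNA-Cys and of single loci. Of the values recomputed on all samples of a comparison, 99 kept direction, 14 turned and 5 moved. A change of size counted as moved only for numbers of called loci. Other values could keep their direction and still change in size. The cause was not tested for those below. For UF-dFBS against FBS, the 0 loci called became 18 in DESeq2 with the spike-in factors (37.2% of all loci). With the serum as replicate block they became 33 (66.1% of all loci). The block changed no call of these loci for UC-dFBS, beside 2.48% of all loci. No paired analysis was possible for SBI-dFBS because its lots share no serum with the others. For Sigma against Gibco, the 13 loci called higher (62.1% of all loci) became 27 in DESeq2 with spike-in factors (80.0%). Without a filter the number was 8 (15.2% of all loci), and without the medium as a term 0 (0.0%). Under TMM it turned to 23 lower, beside 21.4% of all loci lower and 17.9% higher. With DESeq2's own factors it turned to 16 lower, beside 58 of all 280 loci lower and 89 higher. On raw counts, tRNA-Cys in UF-dFBS was 2.24 times FBS and 1.78 times the 6 other samples. As a share of all small ncRNA counts, miRNA included, ratios turned for SBI-dFBS against FBS (tRNA-Pro 0.358, tRNA-Cys 0.645), UF-dFBS against FBS (tRNA-Cys 7.13), UF-dFBS against the 6 others (tRNA-Pro 1.06, tRNA-Cys 9.06) and Sigma against Gibco (tRNA-Pro 0.244, tRNA-Thr 0.650, tRNA-Cys 0.120). Without tRNA3-ProTGG of chromosome 14, the AGG share of tRNA-Pro in Sigma minus Gibco turned to -0.413 percentage points.

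With each replicate left out in turn, the loci called for Sigma against Gibco ranged from 0 to 17, among 5.21% to 66.8% of all loci tested. Ratios to FBS in UC-dFBS ranged from 0.610 to 1.17 for tRNA-Pro, 0.296 to 3.07 for tRNA-Thr and 0.364 to 1.57 for tRNA-Cys, and in SBI-dFBS from 0.938 to 2.65 for tRNA-Pro, 1.12 to 12.1 for tRNA-Thr and 1.20 to 5.39 for tRNA-Cys. As shares of tRNA counts, UF-dFBS against the 6 others ranged from 0.348 to 1.57 for tRNA-Pro, 0.385 to 1.17 for tRNA-Thr and 1.03 to 15.8 for tRNA-Cys. The log2 ratio of tRNA-Pro to tRNA-Cys in Sigma minus Gibco ranged from -1.05 to 0.84. In percentage points, Sigma minus Gibco ranged from -3.95 to 7.23 (AGG), -1.51 to 3.69 (CGG) and -10.9 to 5.46 (TGG) for tRNA-Pro and from -3.89 to 0.173 for AGT of tRNA-Thr, and UF-dFBS minus the 6 others from -1.64 to 6.88 (AGT) and -24.7 to 0.127 (CGT) of tRNA-Thr and from 7.98 to 28.9 for TGG of tRNA-Pro. UF-dFBS ratios to FBS ranged from 0.0201 to 0.165 for tRNA-Pro, 0.00969 to 0.297 for tRNA-Thr and 0.152 to 0.688 for tRNA-Cys, and stayed below 1.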
